A study of Mus musculus with 16 samples.

Results

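Open chromatin in mouse cells on day 4 of chemical reprogramming was compared with that on day 2 of the same course, as the peak lists of an assay for transposase-accessible chromatin (ATAC-seq). A region of the genome was called kept if the peak lists of both days covered it, gained if the day 4 list alone covered it, and lost if the day 2 list alone covered it, with an overlap of at least 1 bp on chromosomes 1 to 19, X and Y. Both lists together gave 88361 regions, of 165616 that the lists of all 8 stages of the series gave. The series followed fibroblasts to induced pluripotent stem cells (iPSCs) through days 2, 4, 6, 8, 10 and 12, with 2 samples and 1 deposited peak list per stage. Which genes lie at the regions that changed class between the 2 days, and where in the genome those regions are, was the question asked of the lists.

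The day 4 cells and the day 2 cells were both labelled reprogramming intermediates. They came from the same source, mouse embryonic fibroblasts of strain 129XOG2 taken at embryonic day 13.5 and used at passages 1 to 3, and both were kept in a chemical reprogramming medium from the day after seeding. That medium was renewed every 2 days, and daily between days 4 and 8, so day 4 is the first day of the daily changes. No untreated culture of the same age was used here, so time in the medium and time in culture cannot be told apart. OG2 cells carry a GFP transgene under sequences of Pou5f1, so reads from the transgene and from the Pou5f1 gene cannot be told apart. Each stage was a bulk culture with a single list, so fewer cells with an open region and less opening per cell cannot be told apart, there is no spread between replicates, and no difference below was tested.

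In ATAC-seq, the transposase Tn5 inserts adapters where DNA is not wrapped in nucleosomes, so that reads pile up at active promoters and enhancers. Promoters of widely expressed genes stay open in most cell types, while enhancers away from genes differ more between cell types and states. In fibroblasts, many such enhancers hold sites for AP-1 (dimers of Jun and Fos proteins), TEAD and RUNX factors. Closing them, and opening enhancers of the target cell type, are known steps of reprogramming to pluripotency.

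The cells at both days kept the open gene ends of fibroblasts. A gene end was counted as covered if a peak lay within 1 kb of either end of the protein-coding gene, since the gene table used gives no strand. Among 10 fibroblast markers, 8 had a covered end at day 4 and 10 at day 2. The exceptions at day 4 were Col3a1, which encodes a chain of type III collagen, and Pdgfra, a growth factor receptor of mesenchymal cells. The end of Pdgfra was not covered at day 0 either. Of 3 pluripotency markers (Pou5f1, Nanog and Zfp42) and 2 muscle markers (Myod1 and Myog), none had a covered end at either day, and the same held for Sox10 (neural crest) and 3 spermatid markers. Epithelial markers had covered ends in 0 of 3 at day 4 and 2 of 3 at day 2, endothelial markers in 1 and 2 of 3, neuronal markers in 1 and 2 of 2, and blood markers in 1 of 3 at both days. With the day 2 list cut to the length of the day 4 list, day 2 had 9 of the fibroblast and 0 of the epithelial markers. It then had 1 of the endothelial and 1 of the neuronal markers, so only the fibroblast count still differed from that of day 4. Single markers went both ways in that setting. Col3a1, Pdgfra and Tubb3 had a covered end at day 2 alone, and Thy1 and Map2 at day 4 alone. The part of other cells in these values was not tested.

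Promoters that show the kinds of difference are printed first: the promoter with the highest peak score among those kept, the one with the highest score among those lost, that with the highest score among those gained as deposited, and 3 lost promoters of genes described below. Each is the 250 bases before a start site, from RefSeq (GRCm38.p6, the chromosomes of mm10), 5′ to 3′ along the gene. Capitals mark matches on either strand to TGANTCA (bound by AP-1), CCAAT (bound by NF-Y), CCGGAAGT (bound by ETS factors) or TATAAA (the TATA box). Hjurp encodes a chaperone of the centromeric histone and was kept (chr1:88277580-88277829, minus strand). Clpb encodes a mitochondrial disaggregase and was lost (chr7:101663501-101663750, plus strand). H2bc22 encodes a histone H2B and was gained (chr13:21787238-21787487, plus strand). Klf4 encodes a reprogramming factor (chr4:55532476-55532725, minus strand), Adcy7 an adenylyl cyclase (chr8:88288816-88289065, plus strand) and Ankrd1 a muscle and fibroblast protein induced by YAP and TEAD factors (chr19:36119845-36120094, minus strand), and all 3 were lost.
Hjurp: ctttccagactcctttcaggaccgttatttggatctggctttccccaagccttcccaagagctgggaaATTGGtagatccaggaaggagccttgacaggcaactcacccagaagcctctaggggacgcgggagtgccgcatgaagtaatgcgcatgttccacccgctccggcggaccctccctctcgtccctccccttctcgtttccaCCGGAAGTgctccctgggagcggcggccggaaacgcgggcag
Clpb: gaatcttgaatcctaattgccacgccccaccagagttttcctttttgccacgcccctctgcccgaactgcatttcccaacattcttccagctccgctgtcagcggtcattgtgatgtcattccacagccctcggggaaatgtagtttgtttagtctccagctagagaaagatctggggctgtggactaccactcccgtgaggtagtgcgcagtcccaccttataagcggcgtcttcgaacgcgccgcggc
H2bc22: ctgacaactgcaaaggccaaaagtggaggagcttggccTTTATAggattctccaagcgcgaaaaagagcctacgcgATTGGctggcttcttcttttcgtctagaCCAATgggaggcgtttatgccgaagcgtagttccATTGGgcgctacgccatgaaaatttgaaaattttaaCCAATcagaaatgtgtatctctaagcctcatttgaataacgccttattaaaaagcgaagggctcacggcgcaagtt
Klf4: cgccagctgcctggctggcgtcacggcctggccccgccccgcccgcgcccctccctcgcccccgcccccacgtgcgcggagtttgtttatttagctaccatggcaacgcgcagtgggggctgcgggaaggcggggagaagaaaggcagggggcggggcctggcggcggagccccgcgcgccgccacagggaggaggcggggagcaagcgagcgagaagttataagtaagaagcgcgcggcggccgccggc
Adcy7: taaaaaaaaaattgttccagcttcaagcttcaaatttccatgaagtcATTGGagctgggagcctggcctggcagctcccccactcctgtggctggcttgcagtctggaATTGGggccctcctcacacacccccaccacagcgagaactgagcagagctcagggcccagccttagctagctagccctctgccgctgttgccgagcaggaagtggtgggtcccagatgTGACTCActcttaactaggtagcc
Ankrd1: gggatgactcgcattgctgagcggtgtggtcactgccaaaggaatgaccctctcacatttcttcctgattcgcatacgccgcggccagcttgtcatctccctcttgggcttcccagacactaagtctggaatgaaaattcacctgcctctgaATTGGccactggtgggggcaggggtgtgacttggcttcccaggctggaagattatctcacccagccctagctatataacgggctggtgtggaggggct

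The Hjurp promoter lay in a kept region (chr1:88276385-88278094) whose score was 1975 at day 4 and 3025 at day 2. The deposited score is the whole part of 10 times the −log10 of the peak's q-value, so it grows with depth and is compared only within a list. The Clpb promoter was in a day 2 peak (chr7:101663476-101664054) with a score of 982, and the lists of all 6 other stages covered it as well. Day 4 was thus the single stage without a peak there. The H2bc22 promoter was in a day 4 peak (chr13:21787274-21787519) with a score of 112, covered at days 6, 8, 10 and 12 and neither at day 0 nor in iPSCs. The Adcy7 promoter, which holds both an AP-1 match and a CCAAT match, was in a day 2 peak of score 224, and that of Ankrd1 in a day 2 peak of score 209. The Klf4 promoter was in a day 2 peak of score 228 and was covered in every stage but day 4 and iPSCs.

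As deposited, far more regions were lost than gained. The day 4 list held 41647 peaks on the chromosomes used, which covered 23.2 Mb with a median width of 479 bp, and the day 2 list 82986 peaks, which covered 66.9 Mb with a median width of 705 bp. Of the regions, 5412 were gained, 35165 kept and 47784 lost. The gained regions were 13.3% (13.0 to 13.7) of those covered at day 4, and the lost regions 57.6% (57.3 to 57.9) of those covered at day 2. Brackets here and below give 95% intervals by the method of Clopper and Pearson, which leave out the spread between cultures. Depth moved with this result: the pileup expected from background, recovered from each peak's fold and p-value, was 1.23 reads in the day 4 list and 3.08 in the day 2 list, which was the longest of the 8 lists.

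When both lists had the same length, losses and gains were nearly equal in number. The day 2 list was cut to its 41647 best-scored peaks, all with a score of at least 138. Then 13434 regions were gained, which was 33.0% (32.6 to 33.5) of the day 4 regions, 27264 were kept, and 14380 were lost, which was 34.5% (34.1 to 35.0) of the day 2 regions. Regions lost at equal length are strong day 2 peaks with no peak of any score at day 4. Regions gained at equal length include day 4 peaks over weaker day 2 peaks, so the 5412 regions with no day 2 peak of any score are the narrower set of gains. With day 2 pileups scaled by the ratio of the backgrounds, 0.399, and weak peaks removed, 74000 day 2 peaks were left. The gained share was then 15.1% and the lost share 53.5%, between the other settings for gains and for losses.

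**Figure D1:**
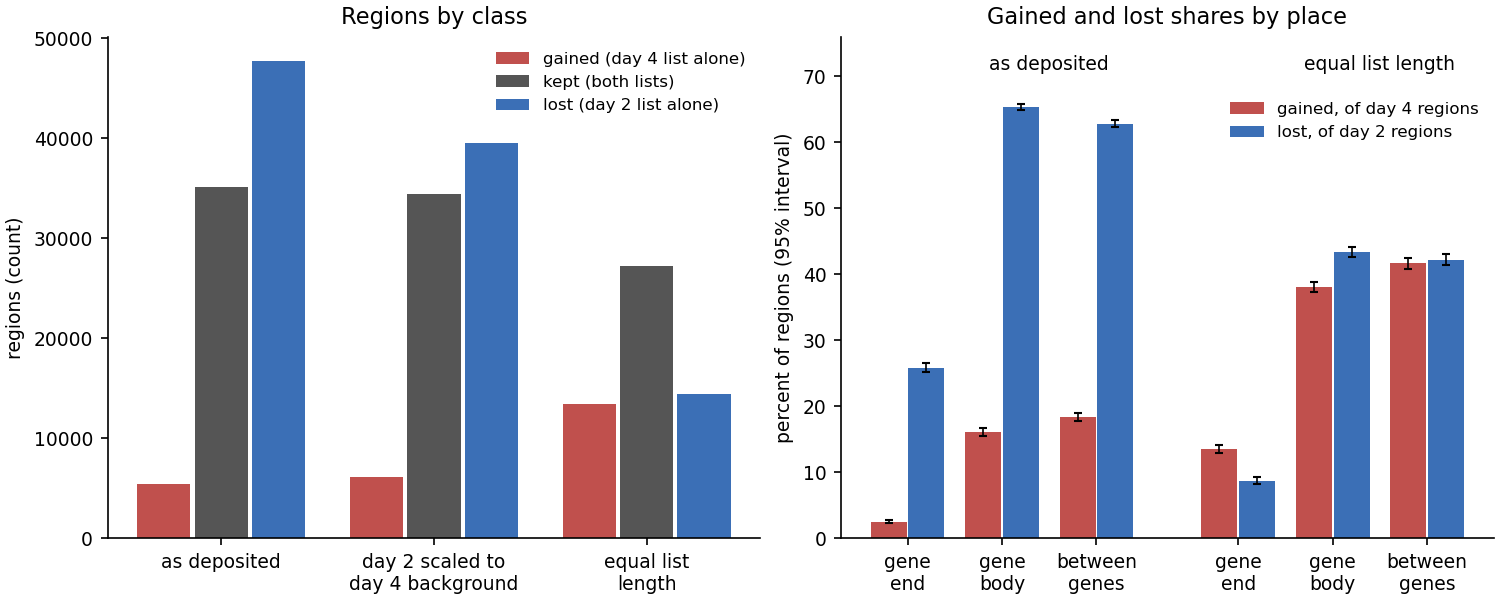
Left, the number of regions gained, kept and lost at day 4 against day 2 with the lists as deposited, at equal list length and with day 2 scaled to the background of day 4. Right, the percent of day 4 regions gained and of day 2 regions lost by place, as deposited and at equal length, with 95% Clopper-Pearson intervals. Regions at gene ends have the lowest shares of both kinds, for example 13.5% gained and 8.69% lost at equal length.

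Gene ends changed class less often than the rest of the genome in either setting. At equal length, 13.5% of the day 4 regions at gene ends were gained and 8.69% of the day 2 regions there were lost. In gene bodies 38.1% were gained and 43.4% lost, and between genes 41.6% were gained and 42.2% lost. As deposited the gained shares were 2.51% at gene ends, 16% in gene bodies and 18.3% between genes, and the lost shares 25.8%, 65.4% and 62.8%. At the 300 bp windows around start sites the shares were lower still, with 8.21% gained and 5.29% lost at equal length. So gene ends made up 10.7% of the gained, 33.8% of the kept and 6.11% of the lost regions there, and more gained than lost regions lay at gene ends, 1440 against 878. As deposited, the order of gained and lost was the other way, with 269 gained regions (4.97%) and 3639 lost ones (7.62%).

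Gained regions were narrow and kept regions wide, in part by definition. A kept region is the merged span of its day 4 and day 2 peaks, while gained and lost regions come from 1 list each. The median peak width was 479 bp in the day 4 list and 705 bp in the day 2 list. Wider regions also overlap peaks of other lists more easily, and the part of width in the coverage by other stages was not tested. As deposited the median width was 316 bp for gained, 1005 bp for kept and 542 bp for lost regions, and at equal length 350, 1082 and 749 bp. Among chromosomes 1 to 19, as deposited, the gained share ran between 10.1% on chromosome 19 and 15.6% on chromosome 14, and the lost share between 55.3% on chromosome 7 and 60.4% on chromosome 15. Chromosome X had 11.7% gained and 57.0% lost. Chromosome Y lay outside these ranges, with 6 of 17 day 4 regions gained (35.3%) and 1 of 12 day 2 regions lost (8.33%).

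Weak peaks changed class far more often than strong ones in both lists. Each list was split by score into 10 bins of equal size. In the strongest bin of the day 4 list 22 of 4164 peaks (0.528%) were gained as deposited, and in the weakest bin 1814 of 4165 (43.6%). In the strongest bin of the day 2 list 565 of 8298 peaks (6.81%) were lost, and in the weakest bin 92.0%. Within a bin the share also differed by place. In the strongest bin of the day 2 list, 14 of 3618 peaks at gene ends (0.387%) and 551 of 4680 peaks away from them (11.8%) were lost. Peaks of the weakest bin were lost at 91.3% at gene ends and at 92.0% away from them. Gained day 4 peaks likewise made up 22.5% of the weakest bin at gene ends and 46.1% of it elsewhere.

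**Figure D2:**
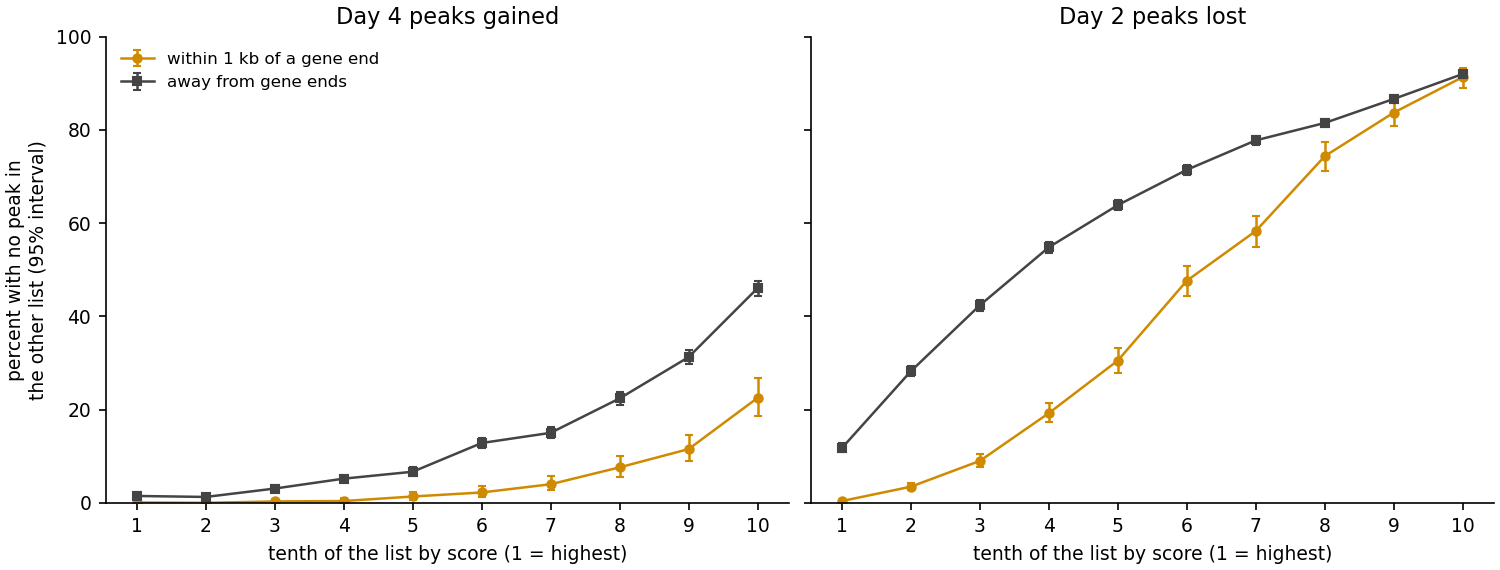
Percent of peaks gained in each of 10 bins of the day 4 list (left) and lost in each of 10 bins of the day 2 list (right), by deposited score from the strongest bin to the weakest, with the lists as deposited. Peaks at gene ends and away from them are drawn apart, with 95% Clopper-Pearson intervals. The lost share away from gene ends goes from 11.8% in the strongest bin to 92.0% in the weakest.

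Regions lost at equal length were strong at day 2 by selection. Every peak of the cut day 2 list had a summit pileup of at least 27 reads. In the lost regions the lowest summit pileup was 27 reads, the median 41 and the highest 183. The median times the ratio of the backgrounds is 16.4 reads, against a median of 15 reads over all day 4 peaks. After this scaling, 8796 of the 14380 lost regions (61.2%) were at or above that day 4 median. The day 4 median includes weak peaks, while the lost regions come from the best-scored day 2 peaks alone, so the sets are unlike. The lowest summit pileup called at day 4 was 6 reads.

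Regions lost at day 4 often had a peak again at day 6, but less often than kept regions. Of the 14380 regions lost at equal length, 64.5% were covered at day 6 and 46.5% at day 0. Of all 41644 day 2 regions at equal length, 34381 were covered at day 6 and 26391 at day 0. Later lists covered fewer of the 14380 lost regions: day 8 had 14.2%, day 10 had 13.6%, day 12 had 4.9% and iPSCs had 11.7%. The day 6 list has 57871 peaks, so it was also cut to the length of the day 4 list, and it then covered 51.9% of the lost regions, and day 0, cut alike, 43.2%. By pattern, 5258 lost regions (36.6%) were covered at both day 0 and day 6, 4010 (27.9%) at day 6 and not day 0, 1425 (9.91%) at day 0 and not day 6, and 3687 (25.6%) at neither. In 255 of them (1.77%) all 6 other stages had a peak, as at the Clpb promoter, and 3238 (22.5%) were in the day 2 list alone. As deposited, which adds the weaker day 2 peaks, day 6 covered 37.9% of the 47784 lost regions, or 25.1% when cut to the length of day 4, and day 0 covered 29.8%. Kept regions likewise had a lower share at day 6 as deposited, 83.3% against 92.1% at equal length. Of the 47784 regions lost as deposited, 20432 (42.8%) were in the day 2 list alone.

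Kept regions were covered more often than lost ones in all 6 other stages, and most regions gained as deposited were in no other list, while most of those gained at equal length were in some other list. At equal length, the day 0 list covered 72.3% of kept regions and the day 6 list 92.1%. Coverage of kept regions was 53.3% for day 8, 51.6% for day 10, 35.3% for day 12 and 47.6% for iPSCs. All 6 other lists covered 8570 of them (31.4%). Of the regions gained as deposited, day 0 covered 7.9%, day 6 covered 15.2%, day 8 covered 9.8%, day 10 covered 11%, day 12 covered 4.7% and iPSCs covered 10.3%. No other stage had 3630 of the 5412 gained regions (67.1%), and 4349 (80.4%) were covered neither at day 0 nor at day 6. At equal length more of the gained regions had a peak elsewhere: 22.2% on day 0, 35.9% on day 6, 18.1% on day 8, 19.8% on day 10 and 7.83% on day 12. In no other stage were 6037 of these 13434 (44.9%). Weak peaks are common among the gained regions, and their part in this was not tested.

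**Figure D3:**
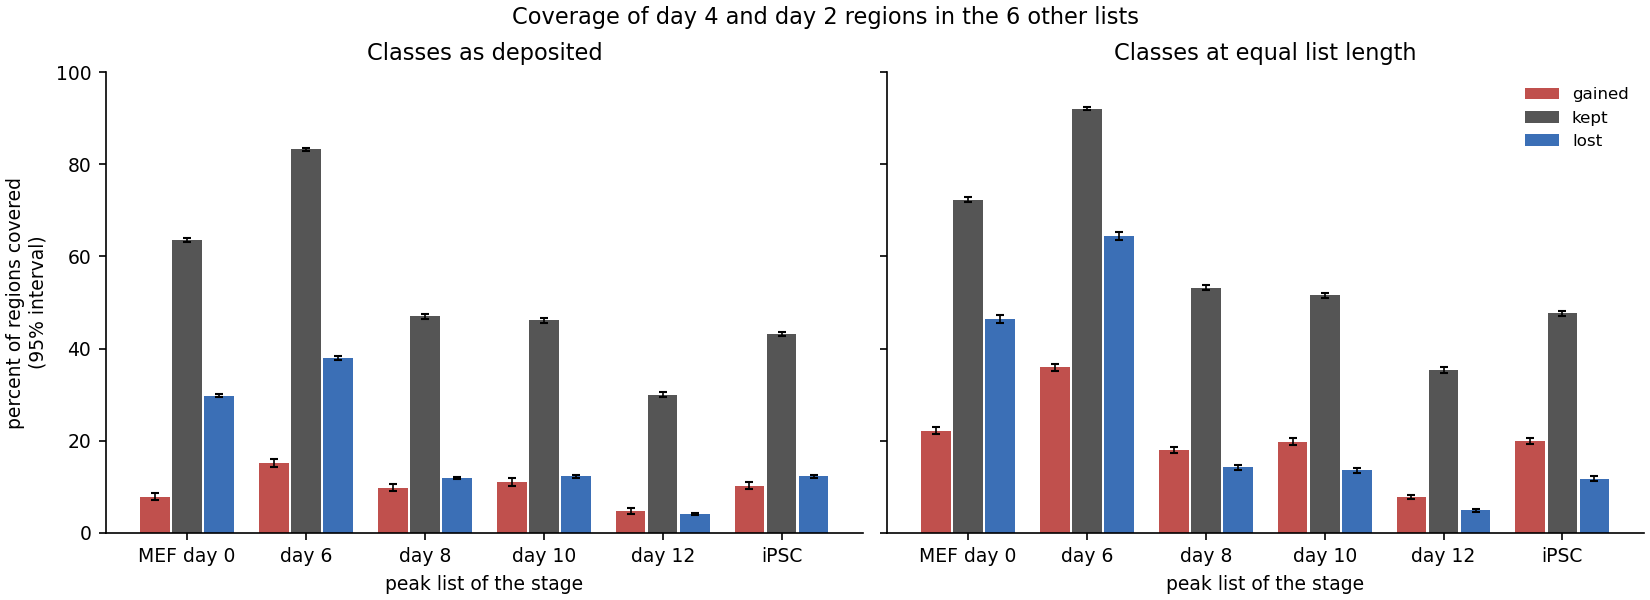
Percent of gained, kept and lost regions covered by the peak lists of the 6 other stages, as deposited (left) and at equal list length (right), with 95% Clopper-Pearson intervals. Lost regions reach 37.9% at day 6 as deposited and 64.5% at equal length, and stay at or below 14.2% in the later stages.

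The strongest regions of each class differed in kind. The highest-scored kept region (chr2:98666572-98667310) had a summit pileup of 6489 reads at day 4 over a local background of 453, and 7931 over 556 at day 2. The next kept regions lay near Gtpbp4 (chr13:9011686-9012250, day 4 score 12442), between genes on chromosome 14 (chr14:19415727-19419352, 7078), near Axin2 (chr11:109011646-109012125, 6758) and between genes on chromosome 14 (chr14:124801559-124802237, 6307). All 5 were covered in all 8 lists. Their local backgrounds lay between 15.2 and 556 reads, against a background of 1.23 reads for the day 4 list and 3.08 for the day 2 list. What raised the local signal there was not tested.

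The strongest gained regions were covered in later lists and lay near the lowest width of the day 4 list. Their widths were between 218 and 248 bp, where the shortest day 4 peak had 218 bp and the median was 479 bp. What made these peaks so narrow was not tested. In the body of Chl1, a neural adhesion gene, a region of 219 bp (chr6:103649068-103649286) had a day 4 score of 9428 and a summit pileup of 786 reads over a local background of 18.5. Near Ifngr2, an interferon-gamma receptor gene, a region of 218 bp (chr16:91534585-91534802) had a score of 3157. The others lay in Stap2 (chr17:56005867-56006114, score 1992), between genes (chr1:195371733-195371969, score 1130) and in Timd2 (chr11:46675906-46676133, score 964). All 5 were covered at days 8, 10 and 12, all but the Ifngr2 region at day 6, and none at day 0 or in iPSCs. In all, 25 of the 5412 gained regions (0.462%) were covered at days 6, 8, 10 and 12 and at neither end of the course. The same pattern was found in 105 of 35165 kept regions (0.299%) and 81 of 47784 lost regions (0.170%).

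The strongest lost regions had been covered at day 0 and were covered again at day 6. They lay near Cdk17 (chr10:93138341-93139435, day 2 score 1138), in Scmh1 (chr4:120517044-120518103, 1071), in Zswim9 (chr7:13263885-13264714, 1006), near Slc24a5 (chr2:125014236-125015673, 997) and in Nadk (chr4:155582187-155582929, 985). Cdk17 encodes a cyclin-dependent kinase, Scmh1 a Polycomb protein and Nadk the kinase that makes NADP. Day 8 covered all of them but the Zswim9 region.

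Over whole genes, coverage of gene ends differed by the setting. Ends of 11304 protein-coding genes were covered at day 4, against 13605 at day 2 as deposited and 11014 at day 2 at equal length. Of the genes with a covered end at day 4, 126 (1.11%) had none at day 2 as deposited and 1145 (10.1%) none at equal length. Of those with a covered end at day 2, 2427 (17.8%) had none at day 4 as deposited, and 855 (7.76%) at equal length. Each region was also given to its nearest protein-coding gene within 100 kb. At equal length, 3606 of 14738 genes with a region (24.5%) had more gained than lost regions, and 4223 (28.7%) more lost than gained. Across the regions given to genes, 31.0% of those at day 4 were gained and 33.4% of those at day 2 lost at equal length, and 12% and 56.9% as deposited.

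The lists of genes below, grouped by role, are read against these shares. They are counts of regions, some of them small, and neighbouring regions of a gene are not independent.

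**Figure D4:**
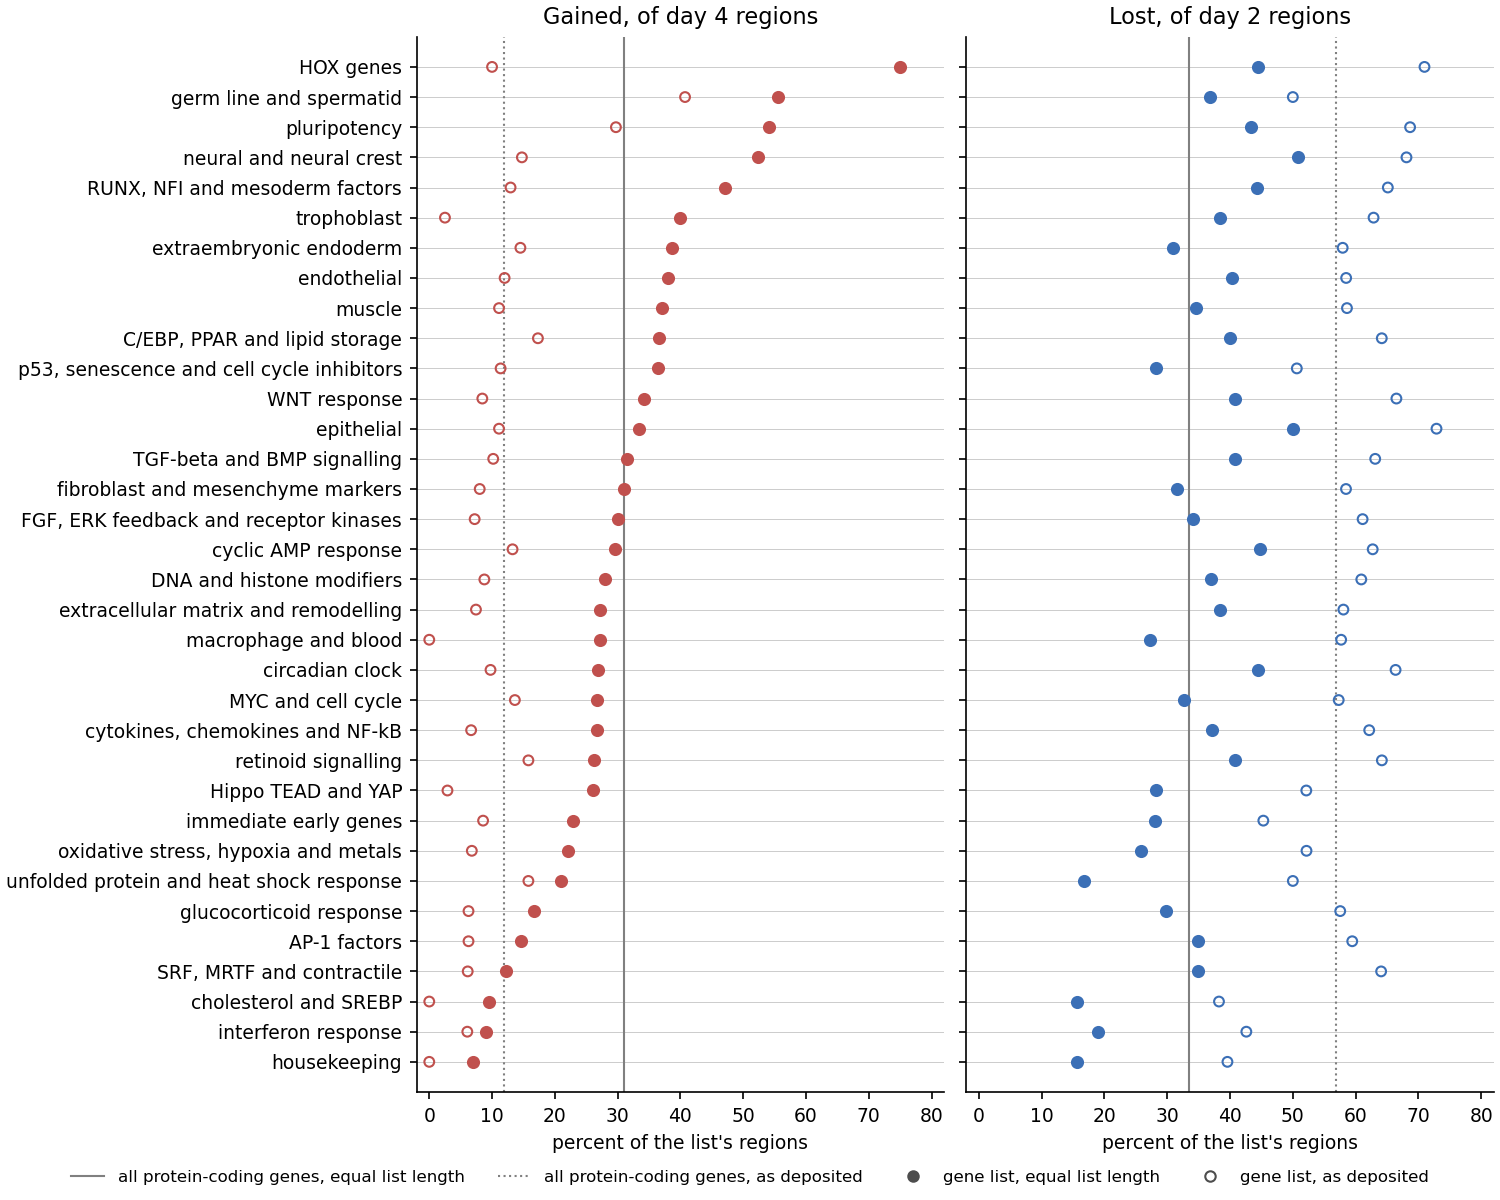
Percent of day 4 regions gained (left) and of day 2 regions lost (right) for regions nearest to the genes of each list. Filled points stand for equal list length and open points for the lists as deposited, and the solid and dotted lines mark all protein-coding genes (31.0% and 12% gained, 33.4% and 56.9% lost). AP-1 and SRF genes, among other lists, lie below the lines for gains in both settings. Pluripotency, germ line and neural genes, among other lists, lie above them.

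Genes of the AP-1 factors and of the SRF pathway had few gained regions in both settings. AP-1 factors bind fibroblast enhancers, and SRF with its partners Mrtfa and Mrtfb drives genes of the actin cytoskeleton. At equal length 7 of 48 AP-1 day 4 regions (14.6%) were gained, against 31.0% for all genes, and 22 of 63 day 2 regions (34.9%) lost, against 33.4%. For SRF genes 6 of 49 (12.2%) were gained and 23 of 66 (34.8%) lost. As deposited the gained shares were 6.25% (3 of 48) for AP-1 and 6.12% (3 of 49) for SRF genes, against 12% for all genes. The lost shares were 59.5% and 64.1%. Gained shares below those of all genes in both settings were also found in other lists, such as Hippo, extracellular matrix and housekeeping genes. More gained than lost regions were found in 2 AP-1 genes and more lost than gained in 5, and in 2 and 9 SRF genes.

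Jun, which encodes a main subunit of AP-1, had 0 gained, 3 kept and 10 lost regions as deposited, and 0, 3 and 6 at equal length. The region at the end of Jun (chr4:95051464-95053785) was covered in all 8 lists, with a summit pileup of 75 reads at day 4 and 163 at day 2. Pileups of kept regions here and below are not scaled. The ratio of the backgrounds, day 4 over day 2, is 0.399, so a lower raw pileup at day 4 is not by itself a loss. Both kept regions beyond it were near the list's median at day 4 and far above it at day 2. At chr4:95097769-95099185 the pileup was 19 reads at day 4, where the median of all peaks is 15, and 148 at day 2, where it is 32. At chr4:95105406-95106570 it was 22 reads at day 4 and 153 at day 2. The strongest lost region near Jun (chr4:95025641-95026630) had 95 reads at day 2, or 37.9 after scaling to the day 4 background, and was covered at days 0 and 6.

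Other genes of both lists showed losses with few gains. Bach2, which encodes a repressor that binds with small Maf proteins, had 3 gained, 11 kept and 8 lost regions at equal length. Mrtfb had 1, 7 and 6, and Mrtfa 1, 3 and 4. Junb, a further AP-1 subunit, and Tagln, a contractile protein gene, lost the covered end they had at day 2 even at equal length. Among immediate early genes, which respond first to growth signals, Dusp5 (a phosphatase of ERK) had 0 gained, 3 kept and 5 lost regions at equal length. Nr4a3, an orphan nuclear receptor gene of that list, went the other way with 5, 2 and 0. That list as a whole had 22.9% gained and 28% lost. Among Hippo pathway genes, with 26.1% gained and 28.2% lost, Ankrd1 had 2, 4 and 5 and Vgll4, a TEAD cofactor gene, 3, 7 and 0.

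TGF-beta and BMP genes had a lost share above that of all genes in both settings and a gained share close to theirs. For TGF-beta and BMP genes 34 of 108 day 4 regions (31.5%) were gained and 51 of 125 day 2 regions (40.8%) lost at equal length, against 31.0% and 33.4% for all genes, and 10.2% and 63.1% as deposited, against 12% and 56.9%. Smad3, which carries the TGF-beta signal to the nucleus, had 1 gained, 4 kept and 8 lost regions at equal length, and 0, 5 and 12 as deposited. Its strongest lost region lay in the gene body (chr9:63737374-63738229), with 106 reads at day 2, or 42.3 after scaling, and was covered at day 6 and not at day 0. The Smad3 region at the gene end (chr9:63757685-63758637) was covered in all 8 lists, with 19 reads at day 4 and 62 at day 2 before scaling. Smad6, an inhibitor of BMP signalling, had 1 gained, 2 kept and 5 lost regions at equal length.

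Genes of the cyclic AMP response had a lost share above that of all genes in both settings. At equal length it was 44.8% (56 of 125), against 33.4%, and as deposited 62.7%, against 56.9%. Their gained shares, 29.6% (29 of 98) and 13.3%, were close to those of all genes. More gained than lost regions were found in 1 of these genes and more lost than gained in 11 of 16. Both genes with the widest margin encode phosphodiesterases, which break down cyclic nucleotides: Pde4d had 13 gained, 24 kept and 20 lost regions, and Pde10a 2, 8 and 7. At the ends of Adcy7 and of Sik1, a kinase gene induced by cyclic AMP, a peak at day 2 was absent at day 4 also at equal length.

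Circadian clock and retinoid genes had the same order. Clock genes had 11 of 41 regions gained (26.8%) and 24 of 54 lost (44.4%) at equal length, and 9.76% and 66.4% as deposited. Arntl, a core activator of the clock, had 1 gained, 4 kept and 4 lost regions, and Nfil3, a repressor of its output genes, 1, 1 and 4. Retinoid genes had 15 of 57 gained (26.3%) and 29 of 71 lost (40.8%), and 15.8% and 64.2% as deposited, so their gained share lay below all genes in one setting and above in the other. Aldh1a2, an enzyme that makes retinoic acid, had no gained or kept region and 4 lost ones at equal length, and its relative Aldh1a1 0, 3 and 4. Glucocorticoid response genes had 8 of 48 gained (16.7%) and 17 of 57 lost (29.8%). Within that list Zbtb16, a zinc finger repressor gene, had 1 gained, 3 kept and 6 lost regions, and Dusp1, a phosphatase of stress kinases, 0, 3 and 3.

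Genes of the extracellular matrix, which fibroblasts make, had 33 of 121 regions gained (27.3%) and 55 of 143 lost (38.5%) at equal length, and 7.44% and 58.1% as deposited. Ends of 15 of its 26 genes were covered at day 4, against 22 at day 2 as deposited and 17 at equal length. Fbn1, the gene of fibrillin-1, had 2 gained, 5 kept and 7 lost regions at equal length, and Col12a1, a fibril-associated collagen gene, 2, 3 and 6. Ends of Col4a1 and Col4a2 (basement membrane collagen), Timp2 (a protease inhibitor) and Adam12 (a metalloprotease) were covered at day 2 and not at day 4, also at equal length. Cytokine, chemokine and NF-kB genes had 16 of 60 gained (26.7%) and 26 of 70 lost (37.1%). Within it Nfkb1 had 1 gained, 3 kept and 4 lost regions, while Hmga2, a chromatin protein gene, had 5, 8 and 0.

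Fibroblast and mesenchyme markers as a list stayed close to all genes, with 35 of 113 regions gained (31.0%) and 36 of 114 lost (31.6%) at equal length, and 8.04% and 58.5% as deposited. Ends were covered in 20 of 26 genes at day 4, against 23 at day 2 as deposited and 20 at equal length. Thy1, a surface marker of fibroblasts, had 3 gained, 1 kept and 2 lost regions at equal length, and 1, 3 and 8 as deposited. The strongest region lost there (chr9:43944893-43945940) had 120 reads at day 2, or 47.9 after scaling, and was covered at days 0 and 6. At the end of the gene the Thy1 region (chr9:44042923-44044193) was kept as deposited, with 18 reads at day 4 and 40 at day 2 before scaling. Zeb2, which encodes a repressor of epithelial genes, had 5 gained, 3 kept and 3 lost regions, and Cd44, a hyaluronan receptor gene, 1, 5 and 3.

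**Figure D5:**
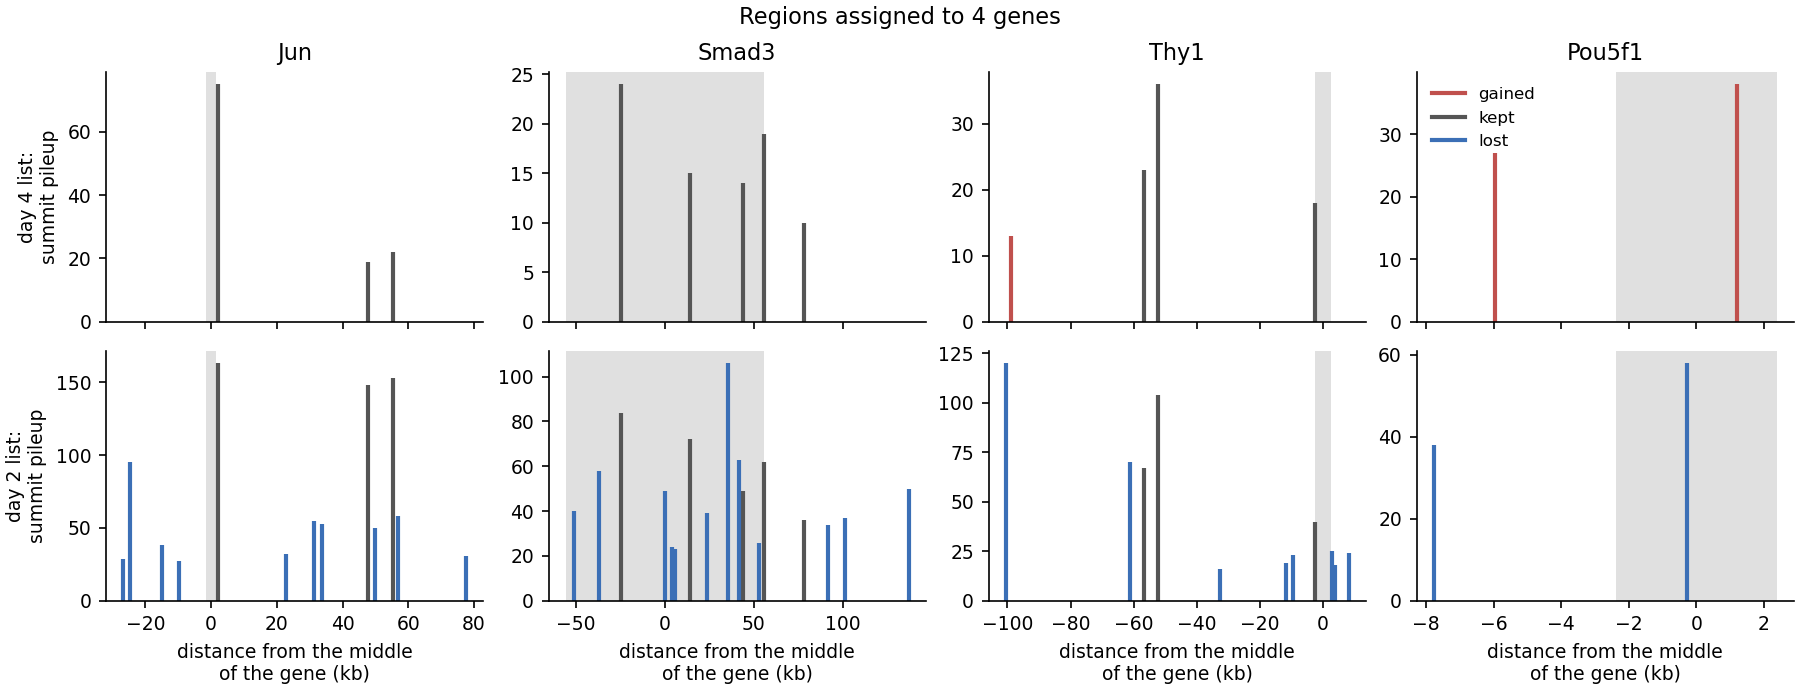
Summit pileup in reads of each region nearest to Jun, Smad3, Thy1 and Pou5f1, by its distance in kb from the middle of the gene, with day 4 in the upper and day 2 in the lower panels, each on its own scale. Colours mark gained, kept and lost regions as deposited, and the grey band is the gene. Jun and Smad3 have 10 and 12 lost regions and no gained one, while Pou5f1 has 2 gained and 2 lost regions.

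Pluripotency genes had a gained share above that of all genes in both settings. The same held for other lists, such as germ line, neural, RUNX and mesoderm, extraembryonic endoderm, and C/EBP and PPAR genes. For pluripotency genes 20 of 37 day 4 regions (54.1%) were gained at equal length, against 31.0%, and as deposited 11 of 37 (29.7%), against 12%. Their lost share was also above that of all genes, 43.3% (13 of 30) at equal length and 68.7% as deposited. More gained than lost regions were found in 7 genes and more lost than gained in 6. Covered ends numbered 7 of 24 at day 4, 10 at day 2 as deposited and 7 at equal length, and 18 of the 20 gained regions lay away from gene ends. With the limit at 20 kb, 10 of 25 were gained (40.0%, against 29.4% for all genes) and 5 of 20 lost (25%, against 31.9%), so the lost share was then below that of all genes.

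Pou5f1, which encodes the core pluripotency factor OCT4, had 2 gained, no kept and 2 lost regions as deposited. The gained region in the gene body (chr17:35509449-35509759) had a summit pileup of 38 reads and a score of 62 at day 4, and had peaks in the lists of days 8, 10, 12 and iPSCs but not of day 6. The other (chr17:35502329-35502560) had 27 reads and a score of 26, and was covered at day 12 and in iPSCs. The lost Pou5f1 regions (chr17:35507858-35508422 and chr17:35500329-35500941) had 58 and 38 reads at day 2 before scaling. The transgene's share of these reads was not tested.

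Other pluripotency genes differed among themselves. Klf4 had 4 gained, 1 kept and 1 lost region at equal length, and the lost Klf4 region was the one at its promoter (chr4:55532445-55533361, 59 reads at day 2). Tbx3, a T-box factor gene of stem cells and mesoderm, had 5, 1 and 1. As deposited, only 2 regions of each were gained, so the rest of these gains lay over weaker day 2 peaks. Nanog had 0 gained, 3 kept and 0 lost regions at equal length, and Zfp42, a marker of the naive state, 0, 0 and 2. The end of Tfcp2l1, a naive pluripotency factor gene, was covered at day 2 and not at day 4, also at equal length.

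Germ line genes had the highest gained share as deposited among the lists. It was 40.7% (11 of 27), and 55.6% (15 of 27) at equal length, with 16 of 32 day 2 regions lost as deposited and 36.8% at equal length. Morc1, a silencer of transposons in male germ cells, had 4 gained, 2 kept and 0 lost regions at equal length, and Tex14, a protein of germ cell bridges, 5, 5 and 2. As deposited the gained regions numbered 4 and 3 in these genes, 7 of the list's 11. Genes of extraembryonic endoderm, an intermediate state known in chemical reprogramming, had 24 of 62 gained (38.7%) and 17 of 55 lost (30.9%), and 14.5% and 57.9% as deposited. Lama1, a laminin chain of the basement membrane, had 4 gained, 3 kept and 0 lost regions. Its strongest gained region (chr17:67741362-67741597) had a score of 391 and 43 reads at day 4 and was covered at days 6, 10 and 12. Cubn, an endocytic receptor of visceral endoderm, had 1, 6 and 6.

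HOX genes, which set position along the body axis, gave opposite pictures in the 2 settings. As deposited 2 of 20 day 4 regions (10.0%) were gained and 44 of 62 day 2 regions (71%) lost. At equal length 15 of 20 (75.0%) were gained and 4 of 9 (44.4%) lost, as the day 2 list at equal length covered 9 regions at these genes, against 62 as deposited. Ends of 6 of 26 HOX genes were covered at day 4, against 20 at day 2 as deposited and 3 at equal length. Hoxc4 had 5 gained, 0 kept and 1 lost region at equal length, and Hoxb3 2, 0 and 0. Hoxa5 is an exception, as a day 2 peak at its end (chr6:52203700-52205065, score 239) was absent at day 4 and present in all 6 other stages.

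Neural, mesoderm and epithelial lists had lost shares above that of all genes in both settings. Neural and neural crest genes had 34 of 65 gained (52.3%) and 32 of 63 lost (50.8%), and 14.8% and 68.1% as deposited. Sox5, a SoxD factor gene, had 3 gained, 12 kept and 16 lost regions, and Map2, a neuronal microtubule protein gene, 5, 2 and 0. RUNX, NFI and mesoderm factor genes had 66 of 140 gained (47.1%) and 59 of 133 lost (44.4%). There Runx1, a blood and mesenchyme factor gene, had 3, 10 and 7, and Meis2, a HOX cofactor gene, 6, 2 and 2. Epithelial genes had 6 of 18 gained (33.3%) and 12 of 24 lost, and 11.1% and 72.9% gained and lost as deposited. Ends of 4 of 21 epithelial genes were covered at day 4, against 14 at day 2 as deposited and 3 at equal length.

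Housekeeping, interferon response and cholesterol genes had the lowest gained shares of the lists at equal length, with lost shares also below that of all genes. Housekeeping genes had 2 of 29 regions gained (6.90%) and 5 of 32 lost (15.6%) at equal length, and none gained and 39.6% lost as deposited. Cholesterol synthesis and uptake genes had 9.52% gained and 15.6% lost, and 0 and 38.2% as deposited. Interferon response genes had 9.09% gained and 18.9% lost. Shares also depend on how many regions of a list lie at gene ends. Away from gene ends, 39.9% of all day 4 regions were gained and 42.8% of all day 2 regions lost at equal length, and 38.6% and 42.9% of those given to genes. Restricted alike, housekeeping genes had 14.3% gained and 29.4% lost, AP-1 genes had 17.1% gained and 42.0% lost, SRF genes 17.1% and 43.1%, cyclic AMP genes 32.6% and 47.7%, and pluripotency genes 60.0% and 47.8%. Clock genes had 53.8% lost, TGF-beta genes 48.1% and epithelial genes 57.1%. The lost shares of retinoid genes (43.9%), cytokine genes (41.1%) and extracellular matrix genes (50 of 125) were then close to or below the 42.9% of all genes.

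Shares of the remaining lists are given at equal length. WNT response genes had 34.2% gained and 40.7% lost, growth factor and receptor kinase genes 30.1% and 34.1%, p53 and senescence genes 36.4% and 28.2%, and C/EBP and PPAR genes 36.5% and 40.0%. Igf2, the gene of an imprinted growth factor, had 5 gained, 0 kept and 0 lost regions, and Nkd1, an antagonist of WNT signalling, 5, 4 and 0. Cebpb, an adipogenic factor gene, had 0, 2 and 4, and its end (chr2:167688253-167689352) was covered at day 2 and not at day 4. Vegfa, an angiogenic factor gene induced by low oxygen, had 4, 2 and 1, in a stress list with 22% gained and 25.8% lost. Trophoblast genes had 40.0% gained and 38.5% lost, endothelial genes 38% and 40.4%, muscle genes 37.0% and 34.6%, and cell cycle genes 26.7% and 32.7%. DNA and histone modifier genes had 28.1% and 36.9%, protein folding stress genes 21.1% and 16.7%, and blood genes 27.3% for both.

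Across all protein-coding genes, the 10 with the widest margin in each direction were taken at equal length, with no adjustment for gene length. Robo1, a receptor for axon guidance, had 15 gained, 18 kept and 5 lost regions at equal length, and its relative Robo2 11, 4 and 2. Slc4a4, a bicarbonate transporter gene, had 14, 5 and 4, Rgs7, a regulator of G protein signalling, 10, 6 and 0, and Rbm20, a splicing factor gene, 10, 4 and 0. Nav3, Cdkal1, Nrg1 (a ligand of ERBB receptors), Cntnap2 and Scaf8 complete the 10 genes with the most gains over losses. As deposited the gained regions were fewer, 7 at Robo1, 9 at Robo2, 5 at Rbm20, 4 at Slc4a4 and 4 at Rgs7, so the rest lay over weaker day 2 peaks. The widest margin of losses was at Dlgap2, a scaffold gene of synapses, with 2 gained, 3 kept and 16 lost regions at equal length and 1, 4 and 33 as deposited. Sox5, Lpp (a focal adhesion gene, 5, 10 and 17), Slit3 (a ligand of Robo receptors, 2, 15 and 13), Asap1 (3, 13 and 12) and Med13l (4, 4 and 13) came next, with Babam2, Ptprm, Fmnl2 and Plxna2.

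Start sites of the classes differed in sequence. At equal length, 750 of the 300 bp windows around start sites lay in gained regions, 9613 in kept ones and 484 in lost ones. The AP-1 motif TGANTCA, on either strand, was found in 41 gained windows (5.47%, 3.95 to 7.34), 411 kept windows (4.28%, 3.88 to 4.70) and 57 lost windows (11.8%, 9.04 to 15.0), against 6.99% of all 21263 windows. The CCAAT box was found in 26.9% of gained, 40.7% of kept and 33.5% of lost windows, against 38.2% of all. As deposited, AP-1 was in 0 of 73 gained windows (0 to 4.93), 4.43% of kept and 9.40% of lost windows, and CCAAT in 34.2%, 39.5% and 29.4%, so the order of gained and lost windows turned for CCAAT and not for AP-1. Median GC content at equal length was 61.7% in gained, 62.0% in kept and 59.3% in lost windows, and the ratio of observed to predicted CpG was 0.700, 0.792 and 0.675. Windows in neither list at equal length had a median GC content of 49.7% and held the AP-1 motif in 9.38%. As deposited, median GC content was 62% in both kept and lost windows, with CpG ratios of 0.787 and 0.673. The part of base composition was not tested. Of the lost promoters printed above, that of Adcy7 holds an AP-1 match, and those of Clpb, Klf4 and Ankrd1 hold none. A match is a description of letters, not of binding.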

How the data were processed

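ATAC-seq libraries of 16 samples, 2 for each of 8 stages, were made with 15 PCR cycles and sequenced to 150 bp on a NovaSeq 6000, per the labels' protocols. The tools named are MACS2 2.1.2, Bowtie2 2.2.5, fastp 0.20.1, deepTools 3.4.3 and SAMtools, and the build is mm10, per the submitters' processing notes. The sources used here do not say how the lists were made from 2 samples each, nor whether a shift for the Tn5 cut was applied. The deposited peak lists hold for each peak a score, a fold enrichment (a ratio to local background) and the −log10 of its p-value and q-value, all of them the authors' own values for that peak. The score is the whole part of 10 times the −log10 of the q-value in at least 99.995% of peaks of both lists, and the highest q-value was 0.0498.

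The total reads of a sample are not given in these lists, so depth was read from the background. Summit pileup and background were recovered from the deposited fold and −log10 p-value, and the recovered values returned them within 0.001 for 100% of peaks. On other sequences, 48 peaks of day 4 and 36 of day 2 were left out. Overlap used 1 bp or more. Genes and start sites were taken from RefSeq (GRCm38.p6), with 21887 protein-coding genes and 21263 start site windows of 17492 genes. Gene lists (34 lists, 618 genes, of which 1 was not in the gene table) were matched by symbol. The members and lists were chosen with earlier results of these data known. The genes named were cell type markers, up to 2 genes a list and 10 genes in each direction with the widest margin of gained over lost or lost over gained regions at equal list length, and genes of a list whose end coverage differed. Beyond this rule, 5 regions of each class were named by score, and the genes of the printed promoters were chosen after their values were seen. Scripts used Python 3.11.15, numpy 2.4.6, pandas 2.3.3 and scipy 1.17.1 and were tested on simulated lists. With 1 list per stage no test was made, and intervals cover counting error only. Alternatives were equal list length by score or fold, stricter thresholds, other overlaps and windows, and day 2 scaled to the background of day 4.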

Additional observations from a re-analysis of the deposited data

How the results depend on the processing

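Against the lists as deposited, 53 recomputed values moved, meaning that a count changed by over 1.5 times or a percent left its own 95% interval, and 30 stayed within these bounds. Equal length by fold in place of score gave 15235 gained (37.2%) and 15906 lost regions (38.2%), with 16%, 32.1% and 5.17% of gained, kept and lost regions at gene ends. Equal length by score gave 13434 (33.0%) and 14380 (34.5%), with 10.7%, 33.8% and 6.11%. A −log10 q of at least 2 gave 12.1% gained and 58.0% lost. The better-scored 50% of each list gave 2157 gained (10.4%), 18529 kept and 22961 lost (55.3%), with 11.6%, 41.6% and 10.3% at gene ends. An overlap of 50% of the shorter peak gave 15.2% gained and 58.4% lost. In 200 bp bins, 15485 were gained, 100565 kept and 234094 lost (69.95%), with 9.31%, 35.4% and 14.4% at gene ends. Day 2 scaled to the background of day 4 gave 15.1% gained and 53.5% lost, with 7.29% of lost regions at gene ends. A gene end window of 2.5 kb gave 8.50%, 33.3% and 12.8%. Chosen after seeing the data, 200 bp around each summit gave 12888 gained (30.9%) and 65.3% lost, with 17.3%, 28.5% and 8.79% at gene ends. At equal length these windows gave 18619 gained (44.7%), 23028 kept and 18619 lost (44.7%), with 15.8%, 32.4% and 10.6%. Whether gained or lost regions lay more often at gene ends turned with list length, threshold and peak width, and the cause was not tested. Kept regions had the highest share at gene ends in every setting. Chromosomes 1 to 19 alone moved none of these values. With the limit at 20 kb, the sign of lost minus gained genes was as at 100 kb in 31 of 35 gene list results, but the sizes of many differed. The motif alternative over 200 bp of each region was not run. No paired analysis was possible because each stage has 1 deposited list. The lower background of day 4 limits which weak regions its list could show.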
